A study of Drosophila melanogaster with 12 samples.

Results

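The mitochondrial Cyp12 and Cyp301 genes of Drosophila melanogaster were followed in adult flies given phenobarbital. They were chosen by name, as every probe set whose only platform gene symbol was Cyp12a4, Cyp12a5, Cyp12b2, Cyp12c1, Cyp12d1-d, Cyp12e1 or Cyp301a1. This gave 8 of the 18769 probe sets and 7 of the 11982 distinct genes named by 1 symbol, with 2 probe sets for Cyp12e1 and 1 for each of the others. A ninth probe set names both Cyp12d1-d and its neighbour Cyp12d1-p and is described apart. The flies were Canton S, a laboratory strain used as wild type, or DHR96 mutants, altered in the gene for a nuclear receptor (Hr96 in the gene table); the labels do not describe the allele. All flies of both genotypes went without food overnight before being given either plain sucrose or sucrose containing 0.3% phenobarbital, a barbiturate drug long used to switch on detoxification genes. Each of the 4 groups held 3 oligonucleotide arrays of total RNA. The titles call the genotypes CS and E25; E25 was read as the mutant by elimination. The labels give no sex, age or tissue. Since nothing states that replicate arrays stem from separate cultures, each p-value reflects array-to-array spread that could be technical in part.

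Cytochrome P450 enzymes use heme to oxidise drugs, insecticides and hormones. Most insect P450s sit in the endoplasmic reticulum, while the enzymes of the mitochondrial clade are imported into mitochondria and take their electrons from a ferredoxin and its reductase. In the fly this clade holds both the ecdysone-making enzymes disembodied, shadow and shade and a set of Cyp12 enzymes that have been linked to insecticide metabolism.

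Levels are given as log2 of the deposited array intensity, and a difference of 1 on this scale is a 2-fold change. A probe set with a log2 value under 4, an intensity of 16, is called dim here, since near background the normalization compresses differences. A change was called, and is described as a rise or a fall, where limma's adjusted p over all 18769 probe sets was under 0.05 and the change was at least 1.5-fold. Changes are given with the standard error (SE) of the log2 value. Where a gene has several probe sets, the brightest stands for it. The arrays were of like brightness, with a median intensity of 38.5 to 47.5 and 44.4% to 45.6% of probe sets dim, and the number of arrays limits the precision. Hr96 itself read 8.20 to 8.85 on the wild-type arrays and 9.91 to 10.30 on those labelled mutant, so its probe set separates the genotypes, with the mutant higher. The labels do not say whether this probe set lies outside the altered part of the gene, and it therefore does not check for a loss.

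On phenobarbital, 4 of the 7 genes rose in wild type and the same 4 in the mutant: Cyp12d1-d, Cyp12a5, Cyp12c1 and Cyp12a4. The rises ran from 1.74-fold for Cyp12a4 in wild type to 11.7-fold for Cyp12d1-d in the mutant. Cyp12b2 fell in wild type, by 0.91 ± 0.21 on the log2 scale. Cyp12e1, by its brighter probe set, and Cyp301a1 were not called in either genotype. Over all probe sets, 2.27% were called higher and 2.0% lower in wild type, 3.08% higher and 1.53% lower in the mutant, and 2.15% were called higher in both. Calls in either direction took in 4.27% of probe sets in wild type and 4.62% in the mutant. Shares and medians over all probe sets include the dim ones, here and below unless stated otherwise. Without probe sets of a mean log2 value under 4, 10341 were left. Of these, 447 were called higher and 461 lower in wild type, and 609 higher and 384 lower in the mutant. Of the 6 genes left, 4 were then called higher and 1 lower in wild type, and 5 higher and 0 lower in the mutant. By separation of the arrays, 5 genes lay wholly higher on phenobarbital and 1 wholly lower in wild type (7.11% and 7.17% of probe sets), and 6 higher and 1 lower in the mutant (15.3% and 11.1%). The 7 genes had a median log2 change of 0.80 in wild type and 1.01 in the mutant, beside 0.02 and 0.003 over all probe sets.

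**Figure D1:**
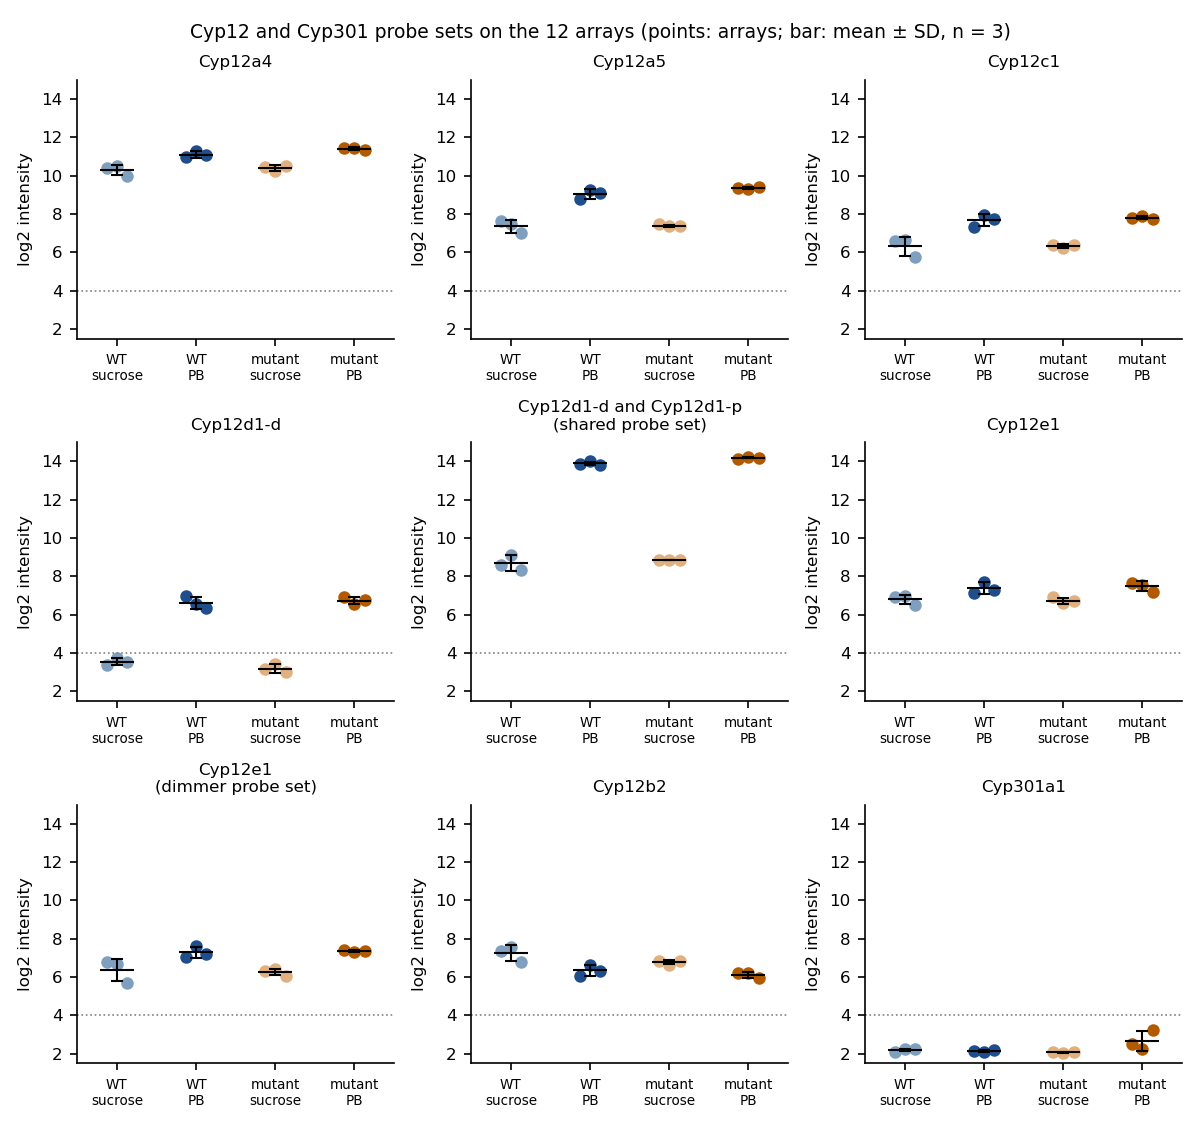
Log2 intensity (vertical axis) of the 8 Cyp12 and Cyp301 probe sets and of the shared Cyp12d1 probe set on each of the 12 arrays, by genotype and diet; points are arrays, black bars the mean ± SD of 3 arrays, PB is phenobarbital and the dotted line marks the dim limit of 4. The shared Cyp12d1 probe set moves from about 9 to about 14, Cyp12b2 moves the other way, and Cyp301a1 stays below the line on every array.

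Cyp12d1, whose expression is known to be raised by insecticides such as DDT, gave the largest changes in the set. The gene exists in this reference as a neighbouring pair of near-identical copies, Cyp12d1-p and Cyp12d1-d. The probe set named for Cyp12d1-d alone read 3.39, 3.76 and 3.51 on the wild-type sucrose arrays and 6.96, 6.54 and 6.35 on phenobarbital. In the mutant it read 3.15, 3.43 and 3.0 on sucrose and 6.91, 6.56 and 6.75 on phenobarbital. Every sucrose array was thus dim and every phenobarbital array was not, in both genotypes. The rise was 8.35-fold in wild type (log2 change 3.06 ± 0.18; adjusted p = 1.85e-05, limma) and 11.7-fold in the mutant (3.55 ± 0.18; adjusted p = 6.2e-06).

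The probe set shared by Cyp12d1-d and Cyp12d1-p was well above the dim limit throughout. It read 8.60, 9.14 and 8.35 in wild type on sucrose and 13.85, 14.00 and 13.84 on phenobarbital. The mutant arrays read 8.86, 8.88 and 8.86 on sucrose and 14.15, 14.21 and 14.20 on phenobarbital. Its rise was 36.7-fold in wild type (log2 change 5.20 ± 0.16; adjusted p = 4.2e-07, limma) and 39.9-fold in the mutant (5.32 ± 0.16; adjusted p = 3.44e-07). By size of log2 change it stood at place 14 from the top of all 18769 probe sets in wild type and at place 15 in the mutant. The 95% intervals of the fold in wild type were 28.5 to 47.3 for this probe set and 6.30 to 11.1 for the one named for Cyp12d1-d alone, but the second is taken against dim sucrose values, so the sizes cannot be compared. Both probe sets rose in both genotypes. With 16 added to every intensity before the log, the Cyp12d1-d change came to 2.04 (wild type) and 2.29 (mutant) and was called in both. Whether the probe set named for Cyp12d1-d also binds Cyp12d1-p transcripts was not tested, as probe sequences were not used here, and the arrays do not tell how the rise divides between the copies.

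Cyp12a5 and Cyp12a4 are next to each other in chromosome order, and both rose. Cyp12a4 has been linked to resistance to the insecticide lufenuron when overexpressed. Cyp12a5 read 7.63, 7.49 and 6.99 on wild-type sucrose arrays and 8.77, 9.24 and 9.12 on phenobarbital. Its mutant arrays read 7.46, 7.36 and 7.40 on sucrose and 9.34, 9.30 and 9.43 on phenobarbital. The diets did not overlap in either genotype, and the rise was 3.19-fold in wild type (log2 change 1.67 ± 0.16; adjusted p = 0.000349, limma) and 3.87-fold in the mutant (1.95 ± 0.16; adjusted p = 0.000122).

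Cyp12a4 was already at 10.43, 10.51 and 9.98 in wild type on sucrose and reached 10.96, 11.30 and 11.06 on phenobarbital. In the mutant it read 10.48, 10.25 and 10.51 on sucrose and 11.43, 11.48 and 11.35 on phenobarbital. Here too each phenobarbital array lay above each sucrose array, and the change was smaller than that of its neighbour. It came to 1.74-fold in wild type (log2 change 0.80 ± 0.14; adjusted p = 0.0107, limma) and 2.01-fold in the mutant (1.01 ± 0.14; adjusted p = 0.00278). In both genotypes the 95% interval of the log2 change lay below that of Cyp12a5, at 0.47 to 1.12 against 1.30 to 2.05 in wild type and 0.68 to 1.33 against 1.58 to 2.33 in the mutant. When only the 6 wild-type arrays were fitted, Cyp12a4 was not called (adjusted p = 0.138).

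Cyp12c1 rose by amounts between those of the Cyp12a pair. It read 6.61, 6.64 and 5.77 in wild type on sucrose and 7.33, 7.94 and 7.77 on phenobarbital. The mutant arrays read 6.40, 6.21 and 6.40 on sucrose and 7.81, 7.89 and 7.76 on phenobarbital. Groups did not overlap, although wild-type sucrose replicate 3 lay well below the other two. The rise was 2.54-fold in wild type (log2 change 1.34 ± 0.23; adjusted p = 0.00905, limma) and 2.80-fold in the mutant (1.48 ± 0.23; adjusted p = 0.00495). Its interval overlapped those of both Cyp12a5 and Cyp12a4 in each genotype, and so its place in the order of these 3 genes is not fixed. In the fit of the 6 wild-type arrays alone Cyp12c1 was not called (adjusted p = 0.156).

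By the brighter probe set, which stands for the gene, Cyp12e1 leaned upwards in both genotypes without passing the test in either. Its brighter probe set read 6.91, 6.97 and 6.53 in wild type on sucrose and 7.12, 7.73 and 7.28 on phenobarbital, and 6.91, 6.60 and 6.70 against 7.68, 7.58 and 7.21 in the mutant. The diets did not overlap, yet the changes were 0.57 ± 0.19 in wild type (adjusted p = 0.17, limma) and 0.75 ± 0.19 in the mutant (adjusted p = 0.0552). The dimmer probe set of the gene read 6.77, 6.66 and 5.70 in wild type on sucrose and 7.07, 7.62 and 7.19 on phenobarbital, and 6.32, 6.40 and 6.08 against 7.43, 7.30 and 7.36 in the mutant. Its diets did not overlap either, and it gave 0.92 ± 0.26 in wild type (adjusted p = 0.099) and 1.10 ± 0.26 in the mutant, where it was called (adjusted p = 0.0441). Averaged over both genotypes, both probe sets were called, the brighter at 1.58-fold (adjusted p = 0.0133) and the dimmer at 2.01-fold (adjusted p = 0.00802). Without wild-type phenobarbital replicate 2 the mean change of the brighter one was 0.58, just under the 1.5-fold limit. Over all alternatives, the dimmer probe set included, the wild-type change was 0.40 to 0.92 with adjusted p from 0.0912 to 0.424. In the mutant it was 0.66 to 1.10, with adjusted p from 4.63e-05 (array weights) to 0.179. There it was also called under quantile normalization (0.0476), without dim probe sets (0.0256), and without wild-type sucrose replicate 3 (0.048), wild-type phenobarbital replicate 2 (0.0333) or mutant phenobarbital replicate 3 (0.046).

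Cyp12b2 was the only one of the 7 genes with lower levels on phenobarbital in both genotypes. Wild type read 7.37, 7.59 and 6.79 on sucrose and 6.08, 6.64 and 6.31 on phenobarbital. The mutant read 6.86, 6.65 and 6.86 on sucrose and 6.23, 6.19 and 5.94 on phenobarbital. No phenobarbital array reached a sucrose array of its genotype. The change was -0.91 ± 0.21 in wild type, called at an adjusted p of 0.0383 (limma), and -0.67 ± 0.21 in the mutant, not called (adjusted p = 0.128). Averaged over the genotypes the fall was 1.73-fold (adjusted p = 0.00871). In the mutant it was called in the fit of the 6 mutant arrays (adjusted p = 0.0321), under array weights (2.32e-05) and without wild-type sucrose replicate 3 (0.0409), over a range of 2.32e-05 to 0.399. The wild-type call lay close to the threshold. Leaving out any 1 mutant array kept the change at -0.91 and gave adjusted p of 0.0539 to 0.0664. Leaving out a wild-type array gave changes of -1.13 to -0.74, and the call was kept without sucrose replicate 3 (adjusted p = 0.00624) or phenobarbital replicate 2 (0.0348) and lost without any of the other 4 (0.11 to 0.128). It was also lost with the replicate number as a block (adjusted p = 0.0559) and when only the 6 wild-type arrays were fitted (adjusted p = 0.274). The mean fall over both genotypes kept its call in all 12 such fits, with log2 changes of -0.90 to -0.70.

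Cyp301a1, which is known in the fly for its part in forming the adult cuticle, was dim on every array. It read 2.11, 2.22 and 2.23 in wild type on sucrose, 2.12, 2.10 and 2.20 on phenobarbital, and 2.09, 2.06 and 2.09 in the mutant on sucrose. The mutant on phenobarbital read 2.49, 2.25 and 3.26, so that replicate 3 stands apart in this group. The changes were -0.05 ± 0.21 in wild type (adjusted p = 0.898, limma) and 0.58 ± 0.21 in the mutant (adjusted p = 0.19). Without that replicate the mutant change was 0.29. At this level the arrays set no useful limit on a change of the transcript.

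**Figure D2:**
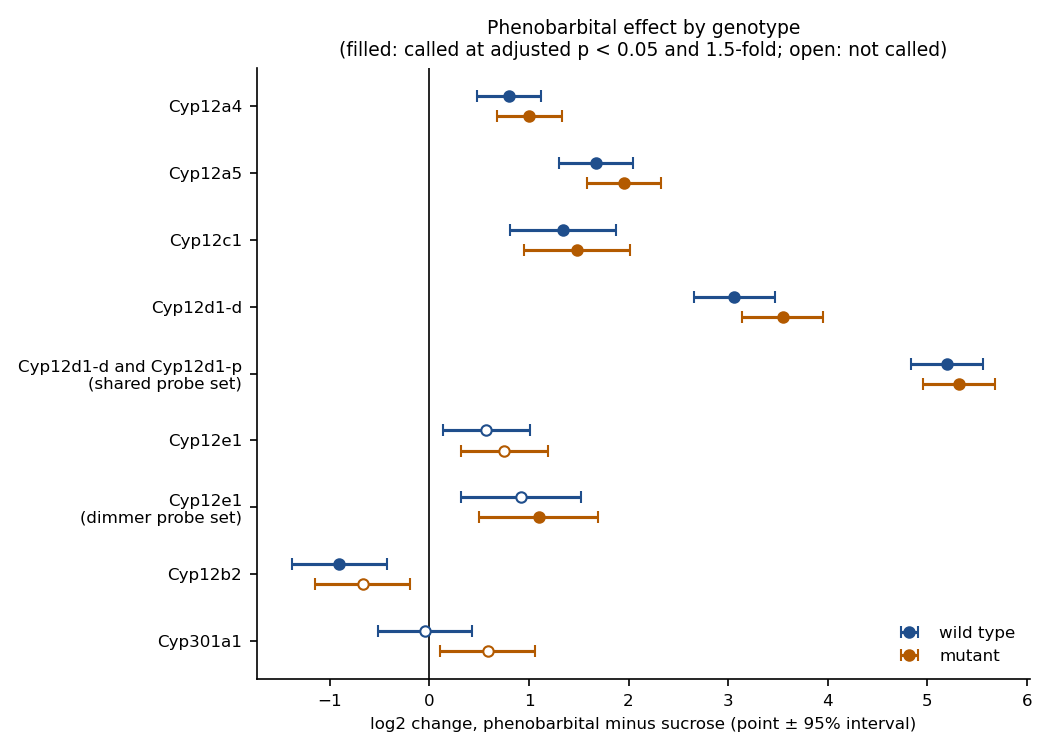
Log2 change on phenobarbital against sucrose (horizontal axis, with 95% intervals from limma) for each Cyp12 and Cyp301 probe set in wild type (blue) and in the mutant (orange); filled points were called, open points were not. The intervals of the 2 genotypes overlap for every probe set, the shared Cyp12d1 probe set lies near 5 and Cyp12b2 below 0.

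Over both genotypes, 5 of the 7 genes read higher on all 6 phenobarbital arrays than on all 6 sucrose arrays and Cyp12b2 read lower on all 6, where 3.81% and 2.97% of all probe sets did so. For Cyp12b2 the gap was barely open, with 6.64 as the highest phenobarbital value and 6.65 as the lowest sucrose value. For Cyp12a5 it ran from 7.63 to 8.77 and for Cyp12d1-d from 3.76 to 6.35. In the mean phenobarbital effect 5 genes were called higher and 1 lower, with 3.01% of probe sets called higher, 2.69% lower and 5.70% in either direction. The mean rises were 9.88-fold for Cyp12d1-d, 3.51-fold for Cyp12a5, 2.66-fold for Cyp12c1 and 1.87-fold for Cyp12a4.

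The replicates of wild type on sucrose spread more than those of the mutant on sucrose for several of these genes. For Cyp12c1 the SD was 0.50 (wild type) and 0.11 (mutant), for Cyp12a5 0.34 and 0.05, and for Cyp12b2 0.41 and 0.13 (n = 3 each). Wild-type sucrose replicate 3 was the lowest array of its group for 5 of the 6 genes that were not dim throughout, Cyp12d1-d being the exception, and it lay below the group mean for all 6. Over all probe sets not dim throughout, 32.9% were lowest on that array. Its mean deviation over the 6 genes was -0.34 on the log2 scale. Wild-type phenobarbital replicate 1 was likewise lowest in its group for 5 of the 6, with a mean deviation of -0.16, where 48.3% of those probe sets were lowest. In the mutant, sucrose replicate 2 was lowest for 5 of the 6 and phenobarbital replicate 3 for 4, with smaller mean deviations of -0.06 and -0.09. Of those probe sets, 40.8% and 38.8% were lowest on these 2 arrays. Without wild-type sucrose replicate 3 the wild-type changes were 0.64 for Cyp12a4, 1.48 for Cyp12a5, 1.06 for Cyp12c1 and 3.04 for Cyp12d1-d, and all 4 remained called, while Cyp12b2 went to -1.13 (adjusted p = 0.00624, limma). The part of these arrays in the wild-type changes beyond these values was not tested.

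**Figure D3:**
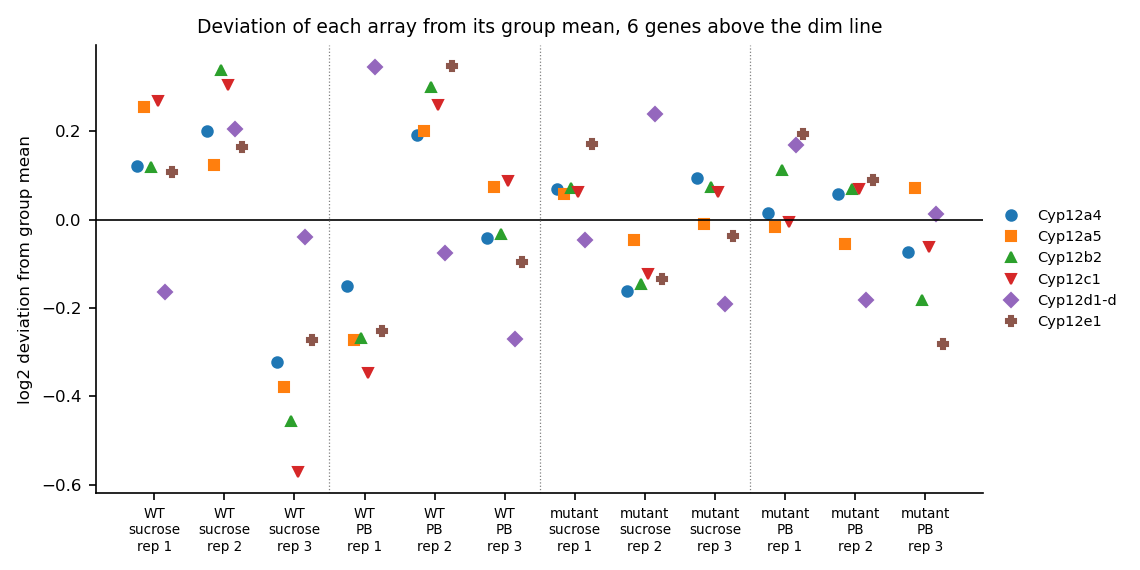
Deviation of each array from the mean of its group (vertical axis, log2) for the 6 genes that were not dim in all groups, with 1 column per array and 1 symbol per gene. Wild-type sucrose replicate 3 lies below 0 for all 6 genes, down to about -0.6 for Cyp12c1.

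The genotype comparisons set the DHR96 mutant against wild type on each diet, and limma called none of the 7 in either. On sucrose 0.213% of probe sets were called (0.0586% higher and 0.155% lower in the mutant) and on phenobarbital 0.117% (0.0746% higher and 0.0426% lower). On sucrose the log2 difference, mutant minus wild type, lay between -0.46 ± 0.21 for Cyp12b2 and 0.11 ± 0.14 for Cyp12a4 (limma, adjusted p from 0.549 to 0.999), and no gene had an unadjusted p under 0.05. Cyp301a1 was lower in each mutant array on sucrose, by 0.10 ± 0.21 at dim levels, and 7.32% of all probe sets were separated in that direction, with 3.23% in the other and no member among them. On phenobarbital Cyp12a4 was higher in each mutant array by 0.31 ± 0.14, Cyp12a5 by 0.32 ± 0.16 and Cyp301a1 by 0.52 ± 0.21, all with an adjusted p of 0.371. Such separation was seen for 9.94% of probe sets, while 41.5% were wholly lower in the mutant, with no member among these. Separation takes no account of size: the median difference over all probe sets was -0.02, and the dim gene dib was wholly lower by 0.02. At an unadjusted p under 0.05 only Cyp301a1 of the 7 stood out on phenobarbital. The shared Cyp12d1 probe set differed by 0.17 ± 0.16 on sucrose and 0.29 ± 0.16 on phenobarbital, with adjusted p of 0.906 and 0.371.

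The responses of the 2 genotypes were compared directly through the interaction, the mutant change minus the wild-type change. Limma called none of the 7 genes and none of the 18769 probe sets, with 0 of the 7 and 624 of all at an unadjusted p under 0.05. An intensity trend with a robust prior called 7 probe sets in all, array weights 5 and the added offset 2, with no member among them. The 95% interval of the log2 difference ran from -0.25 to 0.66 for Cyp12a4, from -0.25 to 0.81 for Cyp12a5, from -0.61 to 0.89 for Cyp12c1 and from -0.09 to 1.06 for Cyp12d1-d. For the shared Cyp12d1 probe set it ran from -0.40 to 0.64, around a rise of more than 5 in each genotype. For Cyp12b2 it was -0.44 to 0.91, for Cyp12e1 -0.43 to 0.79 and for Cyp301a1, at dim levels, -0.04 to 1.30. These intervals leave room for a mutant response up to about 2-fold larger for Cyp12d1-d and do not show that the genotypes respond alike. The Cyp12d1-d responses are taken against dim sucrose values, with means of 3.55 in wild type and 3.19 in the mutant. On phenobarbital its means were 6.62 and 6.74. The interaction estimates themselves lay above 0 for all 7 genes, with a median of 0.24. For Cyp12b2 a value above 0 means a smaller fall in the mutant. The median was 0.10 over the 79 other P450 genes, 26 of them dim in all groups. Over all probe sets, dim ones included, it was -0.01. No difference between these medians was tested.

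Of 79 other P450 genes with a probe set of their own, 26 rose and 3 fell in wild type, and 31 rose and 3 fell in the mutant, with median log2 changes of 0.12 and 0.32. Ranked by log2 change among these and the 7 members, Cyp12d1-d stood at place 8 in wild type and 9 in the mutant, Cyp12a5 at place 17 in both, Cyp12c1 at 19 and 22, and Cyp12a4 at 30 and 32. Cyp12b2 stood near the other end, at places 84 and 83. Of the 79 other genes 26 were dim in all groups, against 1 of the 7 members, and near background differences are compressed. The medians of the 2 sets are therefore not alike in what they measure. No difference between the Cyp12 genes and other P450s was tested.

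**Figure D4:**
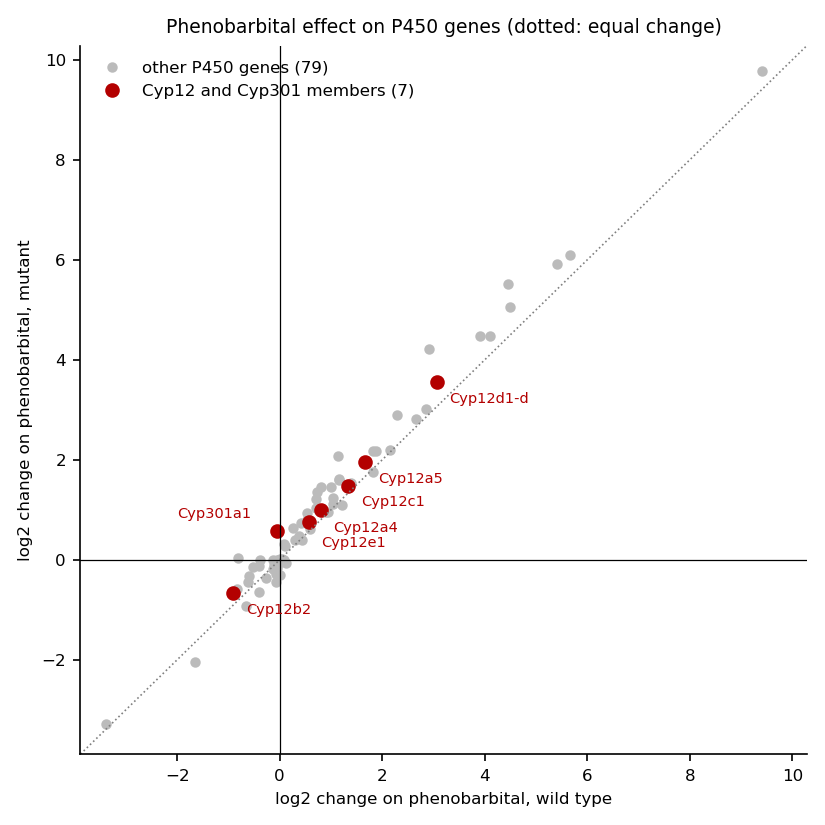
Log2 change on phenobarbital in wild type (horizontal axis) and in the mutant (vertical axis) for 7 Cyp12 and Cyp301 genes (red) and 79 other P450 genes (grey); the dotted line marks equal change. Cyp12d1-d lies above 3 on both axes, 4 further members lie between 0.5 and 2, and Cyp12b2 lies below 0.

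Of the 5 other genes listed for the mitochondrial clade, 4 were measured by a probe set of their own and gave no call. Cyp12d1-p was measured only through the shared probe set, described above, which rose in both genotypes. The ecdysone-making genes dib, sad and shd were dim in all groups, with mean log2 values of 2.02 to 2.05 for dib on every diet and genotype. Cyp49a1, whose function is not well described, read 5.03, 5.88 and 5.01 in wild type on sucrose and 4.29, 4.69 and 4.50 on phenobarbital, against 5.29, 4.66 and 5.28 and then 5.09, 5.11 and 5.12 in the mutant. Its wild-type arrays did not overlap between diets and its mutant arrays did. The changes were -0.81 ± 0.25 in wild type (adjusted p = 0.131, limma) and 0.03 ± 0.25 in the mutant, and their difference, 0.84 ± 0.36, had an adjusted p of 0.841.

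In the comparisons within a genotype, partners that the mitochondrial enzymes need gave calls for 1 ferredoxin gene and 1 heme synthesis gene, both in the mutant. Of the listed electron carriers, the 2 mitochondrial ferredoxin genes were measured, and dare, which encodes the reductase that feeds them, and Cpr, the reductase of the microsomal P450s, were not analysed here. Fdx2 rose in the mutant, 1.52-fold (log2 change 0.61 ± 0.07; adjusted p = 0.00067, limma). In wild type its change of 0.30 ± 0.07 had an adjusted p of 0.0381 and was under the fold limit. Its arrays read 9.86, 9.70 and 9.91 on sucrose and 10.06, 10.08 and 10.22 on phenobarbital in wild type, and 9.96, 9.99 and 9.81 against 10.50, 10.54 and 10.55 in the mutant, with no overlap in either. The difference between the responses was 0.31 ± 0.10 (adjusted p = 0.841). Fdx1 changed by -0.10 ± 0.13 and 0.14 ± 0.13 and was not called.

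Heme, which every P450 carries, is made by a short series of enzymes beginning with Alas. Of 6 genes measured from the list of 9, Alas rose in the mutant, 1.72-fold (log2 change 0.79 ± 0.12; adjusted p = 0.00431, limma), and none was called in wild type, where Alas changed by 0.46 ± 0.12 (adjusted p = 0.0656). Its diets overlapped in neither genotype, and averaged over both it was called, at 1.54-fold (adjusted p = 0.00134, limma). The difference between its responses was 0.32 ± 0.17 (adjusted p = 0.841). Pbgs, the next enzyme, changed by 0.56 ± 0.15 and 0.49 ± 0.15 without a call, and Urod by 0.34 ± 0.08 and 0.41 ± 0.08, with adjusted p of 0.0303 and 0.0118 but under the fold limit. Coprox, Ppox and Uros1 changed by 0.21 or less in size. Over the 6 the median log2 change came to 0.25 (wild type) and 0.31 (mutant).

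**Figure D5:**
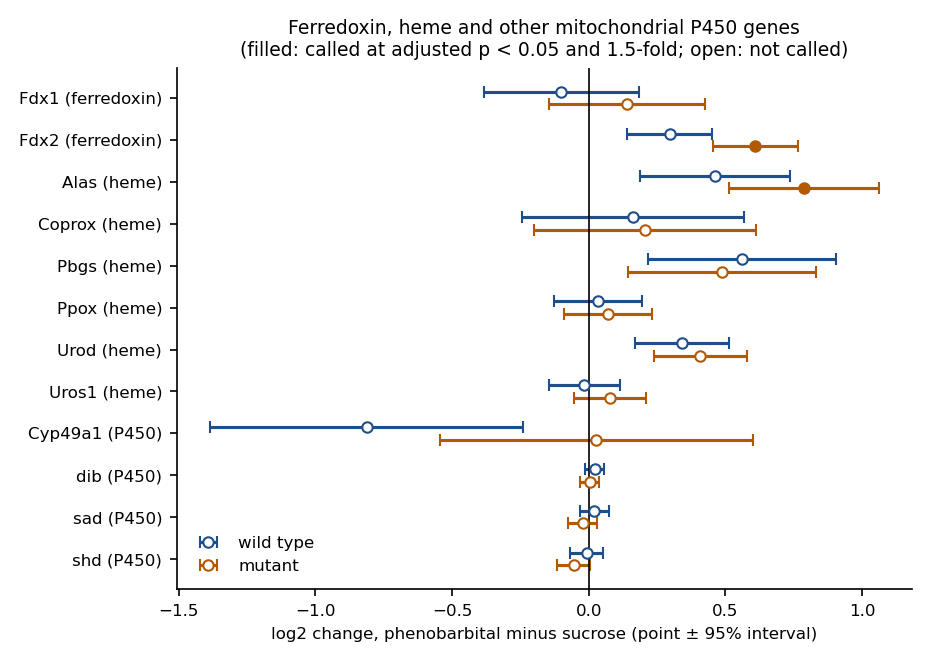
Log2 change on phenobarbital (horizontal axis, with 95% intervals from limma) of 2 ferredoxin genes, 6 heme synthesis genes and 4 other mitochondrial P450 genes in wild type (blue) and in the mutant (orange); filled points were called. The 2 called points are Fdx2 and Alas in the mutant, and dib, sad and shd lie at 0 with narrow intervals at dim levels.

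Of 7 listed sensors and factors, Keap1, the sensor that restrains the stress factor encoded by cnc, rose in both genotypes, by 2.23 ± 0.26 and 2.52 ± 0.26 on the log2 scale (adjusted p = 0.00102 and 0.000435, limma). The cnc gene itself changed by 0.36 ± 0.06 and 0.38 ± 0.06, with adjusted p of 0.00815 and 0.00495 and under the fold limit. The juvenile hormone receptor gene gce was called lower in the mutant than in wild type on sucrose (log2 difference -1.23 ± 0.19, adjusted p = 0.0422), with group means of 4.12 and 5.35. On phenobarbital the means were 5.20 and 5.43, so that gce rose in the mutant by 1.08 ± 0.19 (adjusted p = 0.00909), against 0.08 ± 0.19 without a call in wild type. The difference between the responses had an adjusted p of 0.841. These gce values are from the brighter of its probe sets. A second one was dim, with group means of 2.23 to 2.29. It gave no call, at -0.01 ± 0.03 between genotypes on sucrose and 0.01 ± 0.03 on phenobarbital in the mutant. Of 5 other measured ecdysteroid genes, none was called and 4 were dim in all groups, Cyp18a1 being the exception.

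Genes were ranked by how closely their centred log2 values followed each of the 5 members called in a pairwise comparison, over all 12 arrays, as the root mean square difference among 9421 probe sets. For Cyp12d1-d the closest was the gluconeogenic enzyme gene Pepck1, at 0.26, followed by the UDP-glycosyltransferase gene Ugt37B1 at 0.31 and the epoxide hydrolase gene Jheh2 at 0.36. For Cyp12a5 they were Ugt49C1 at 0.13, CG11594 and CG4377 at 0.15 each. For Cyp12a4 they were CG9471, the galactose enzyme gene Galt and pyd3, at 0.11 to 0.12. For Cyp12c1 they were CG5254, Ugt49B1 and the P450 gene Cyp28a5, at 0.10 to 0.11. For the falling Cyp12b2 they were Ugt301D1, the metallothionein gene MtnC and osy, at 0.10 to 0.12. The measure follows the diet groups that all these genes share and is given as a description.

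The labels name no dissected tissue, and fewer cells of a type and less RNA per cell cannot be told apart in them. Markers of some organs moved with the diet. The summed intensity of 9 Malpighian tubule markers was 3535 to 4226 in wild type on sucrose and 3757 to 4630 on phenobarbital, with 2 markers higher and 3 lower, and 3182 to 4325 and 3759 to 4409 in the mutant, again with 2 higher and 3 lower. For 6 midgut markers the sums were 63330 to 68830 and 68480 to 70100 in wild type and 63790 to 66400 and 65520 to 69960 in the mutant, with 1 called higher in each genotype and 1 lower in the mutant. Their median log2 change was -0.20 in each genotype. For 8 fat body markers the sums were 53270 to 65750 and 52440 to 68050 in wild type, with 1 called higher and 1 lower. In the mutant they were 68160 to 78130 and 75630 to 79940, with 2 called higher and 1 lower. The median log2 changes were 0.02 and 0.11. On phenobarbital 1 fat body marker was called higher in the mutant than in wild type. For 9 accessory gland markers the sums were 56190 to 76930 on sucrose and 18770 to 36390 on phenobarbital in wild type, with 3 called lower. In the mutant they were 52070 to 88430 and 15930 to 31620, with 6 called lower. For 10 epidermis and cuticle markers they were 6582 to 8125 and 2963 to 4176 in wild type, with 2 called lower, and 4975 to 6373 and 4297 to 4851 in the mutant, with none called. The 11 ovary and eggshell markers spanned 13390 to 32690 and 4946 to 14410 in wild type and 27370 to 53850 and 19240 to 38250 in the mutant, with 2 called lower in each. For 10 testis markers they were 17800 to 30300 and 14680 to 23950 in wild type, with 1 called lower, and 18740 to 30820 and 11150 to 17350 in the mutant, with none called. For 5 flight muscle markers they were 39240 to 70840 and 35390 to 51500 in wild type and 19520 to 32830 and 19240 to 25180 in the mutant. No flight muscle marker was called in any comparison, although their median log2 difference between mutant and wild type was -2.32 on sucrose and -2.19 on phenobarbital. For the ovary and eggshell markers this median was 2.72 on sucrose and 3.87 on phenobarbital, with none called between genotypes. For the other organs it lay between -0.42 (testis on phenobarbital) and 0.34 (fat body on sucrose). On sucrose 1 epidermis and cuticle marker was called lower in the mutant. The 1 photoreceptor marker measured was not called. The part of these shifts in the Cyp12 changes and in the differences between genotypes was not tested.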

How the data were processed

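The authors deposited 1 table of normalized intensity values per probe set for 12 arrays, made with GCRMA per the submitters' processing notes; its version, and any genome build, are not given in the sources used here. GCRMA corrects background, normalizes between arrays and summarises probes. The scale was read as linear, since the smallest value per array was 2.46 to 2.50 (an array's largest was 48233 to 52446), and log2 was taken here. No value was missing. Depth has no meaning here, and the number of arrays limits the precision.

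Gene names came from the platform table (13647 probe sets with 1 symbol, 402 with several, 4720 with none); 13544 Entrez identifiers matched a RefSeq gene list (assembly Release 6 plus ISO1 MT) and 0 symbols changed. Of 112 list entries 93 matched, 1 through a synonym (nobo, listed as GstE14). Linear models with 1 mean per group were fitted to all 18769 probe sets and 12 arrays with limma 3.58.1 in R 4.3.3 (8 residual degrees of freedom, 8.82 with the prior), with p-values adjusted by Benjamini and Hochberg over all probe sets. The scripts were tested on simulated data. Alternatives were the fold limit, the variance prior, quantile normalization, dropping dim probe sets, an offset of 16, the replicate block, array weights, a fit of the compared groups alone, and leaving out each array. Named genes were the 7 members, the called or listed genes of the lists, and for each called member the 3 genes of closest pattern. The members and lists were chosen with earlier results of these data known. Figures were drawn with Python 3.11.15 and matplotlib 3.10.9. Protein and promoter sequences were not used here.

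Replicate numbers were not taken to pair arrays: of 18 same-numbered pairs across groups, 7 had correlated deviations over 0.1, with a range of -0.70 to 0.68. Differently numbered pairs across groups ranged from -0.78 to 0.67, so some arrays shared deviations that did not follow the numbers. The source of these shared deviations was not tested.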

Additional observations from a re-analysis of the deposited data

How the results depend on the processing

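The rises of Cyp12a4, Cyp12a5, Cyp12c1 and Cyp12d1-d kept their direction in every alternative, and their calls except where named. Members called higher in wild type went from 4 to 2 when only the groups compared were fitted; members called lower there went from 1 to 0 under that fit, under a 2-fold minimum (which also dropped Cyp12a4, leaving 3 higher) and under the replicate block, and lay at 0 to 1 with an array left out. In the mutant the count of members called higher went from 4 to 5 with Cyp12e1 in 7 alternatives, and 1 member was called lower (Cyp12b2) under array weights and under the fit of the groups compared, and 0 to 1 with an array left out. In the mean effect a 2-fold minimum left 3 higher and 0 lower. Over all probe sets, the wild-type count went from 801 to 506 with a 2-fold minimum and 391 in the groups compared. The mutant count went from 867 to 550 with a 2-fold minimum and to 2559 under array weights (977 higher and 1582 lower, against 579 and 288), where the estimate did not converge and 1 array took a weight of 104. On sucrose, 40 calls between genotypes became 172 under array weights, 4 in the groups compared and 19 to 185 with an array left out, the highest without wild-type sucrose replicate 3. On phenobarbital, 22 became 34 with a trend and robust prior, 74 under array weights and 11 in the groups compared. The interaction went from 0 to 7 (trend and robust prior), 2 (offset), 5 (array weights) and 0 to 15 (an array left out, the highest without wild-type sucrose replicate 3). The mean effect went from 1070 to 1835 without a fold limit and 608 with a 2-fold minimum; under array weights 684 were higher and 840 lower.

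Sign changes were confined to differences between genotypes that were never called. On sucrose these were Cyp12a5 at -0.0083 and Cyp12c1 at 0.0198 under quantile normalization, Cyp12c1 at 0.11 and Cyp12e1 at 0.12 under array weights, and 0.17 for the shared Cyp12d1 probe set. Leaving out an array gave ranges on sucrose of -0.0551 to 0.21 for Cyp12a4, -0.15 to 0.16 for Cyp12a5, -0.29 to 0.15 for Cyp12c1 and -0.21 to 0.0131 for Cyp12e1. On phenobarbital they were -0.0355 to 0.27 for Cyp12c1, -0.0118 to 0.30 for Cyp12d1-d and -0.0146 to 0.29 for Cyp12e1, and in the interaction -0.0324 to 0.43 for Cyp12c1. The cause of these moves was not tested. With the replicate number as a block, no call of a member changed other than Cyp12b2 in wild type (-0.91, adjusted p = 0.0559), and 5 of 12 arrays correlated best with their own number. The probe set alternatives for Cyp12e1 and Cyp12d1-d were added after seeing the data. Dim levels limit what can be read for Cyp301a1 throughout and for Cyp12d1-d on sucrose.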
